A study of Mus musculus with 6 samples.

Results

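Leukocyte adhesion receptors and selectins were followed here in injured mouse femoral arteries, as the 9 genes Icam1, Vcam1, Sele, Selp, Selplg, Cd44, F11r, Jam2 and Jam3. They were taken by gene symbol from a table of 18476 genes, and all 9 were found and passed the filter on low counts. Bulk mRNA had been sequenced from arteries of wild-type C57BL/6 mice on day 3 after wire injury, in which a guide wire strips and stretches the vessel. The vessel had been treated from its outer side with saline in 3 libraries and with vasostatin-2, a fragment of chromogranin A, in the other 3. The design text calls the 3 libraries of a group biological replicates, and all 6 are labelled as 1 batch. The sources used here do not give the age or sex of the mice, and every artery was injured, so no uninjured level can be set beside these values.

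Leukocytes leave the blood in steps, each carried by its own receptors. Selectins on activated endothelium, and P-selectin also on platelets, catch passing cells through sugars carried by proteins such as the P-selectin ligand PSGL-1, so that the cells roll. Integrins on the leukocyte then bind ICAM1 and VCAM1, which arrests the cell, and junctional adhesion molecules at the borders of endothelial cells take part in its passage. CD44 binds hyaluronan, a matrix sugar polymer, and is carried by leukocytes, fibroblasts and smooth muscle cells alike. In a wire-injured artery these receptors are known for the recruitment of monocytes and neutrophils that comes before neointima formation.

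In these libraries none of the 9 receptors differed between treatments past the adjusted threshold. Selp, which encodes P-selectin, came nearest, at a mean 0.872 times its saline level. The largest estimates either side of no change were Cd44, at 0.765 times the saline level, and Jam2, at 1.21 times. Vcam1 and Sele were at 0.815 and 0.829 times, and F11r, Jam3, Icam1 and Selplg had estimates between 0.949 and 1.07 times.

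In the deposited table's coordinates (GRCm38.p6), Sele spans positions 164039614 to 164058487 and Selp 164115264 to 164152218 of chromosome 1, where both lie on the forward strand, and F11r lies farther along it, from 171437561 to 171464593. Icam1 lies on chromosome 9 from 21015940 to 21028814 and Jam3 on the same chromosome from 27097384 to 27155421. Vcam1 is on chromosome 3 from 116110020 to 116141016, Selplg on chromosome 5 from 113817798 to 113840218, Cd44 on chromosome 2 from 102811141 to 102901669 and Jam2 on chromosome 16 from 84774123 to 84826380. The strand written in the deposited table was opposite to that of GENCODE M21, an annotation of the same build, for Vcam1, Selplg and Jam3. Each of those 3 has at least 1 RNAcentral (non-coding) entry among its deposited transcripts, but so do Sele, Selp and Jam2, whose strands match, whereas Icam1, Cd44 and F11r have 0. In the table's spans, Icam1 overlaps Icam4 by 508 bases and Selp overlaps the neighbouring coagulation factor gene F5 by 384 bases. GENCODE M21 places antisense genes that overlap Icam1, Vcam1, Selp and Jam3, and since the sources used here do not say whether strand was kept, reads of such partners cannot be told apart. The 11 transcripts of Cd44 are counted as 1 gene, so its standard and variant splice forms are not separated.

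RefSeq promoter windows of 300 bases, from 250 before to 50 after the annotated start (GRCm38.p6), were matched for 5 of the 9 genes: Icam1, Sele, Selp, Cd44 and F11r. Those of Icam1, Sele and Selp are shown because these receptors are induced or stored by activated endothelium. Capitals mark TATAAA and the pattern GGNNNTTCC, a loose form of the NF-kB site, searched on both strands; the pattern was chosen after the windows had been read. The sequences, each 5′ to 3′ on the strand of the gene, lie at chr9:21015690-21015989, chr1:164047984-164048283 and chr1:164115014-164115313.
Icam1: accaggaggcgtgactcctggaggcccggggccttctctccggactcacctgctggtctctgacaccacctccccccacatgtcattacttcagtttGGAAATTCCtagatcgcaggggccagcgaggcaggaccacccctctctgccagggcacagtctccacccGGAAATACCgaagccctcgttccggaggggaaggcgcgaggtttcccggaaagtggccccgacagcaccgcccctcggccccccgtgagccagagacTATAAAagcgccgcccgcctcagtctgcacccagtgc
Sele: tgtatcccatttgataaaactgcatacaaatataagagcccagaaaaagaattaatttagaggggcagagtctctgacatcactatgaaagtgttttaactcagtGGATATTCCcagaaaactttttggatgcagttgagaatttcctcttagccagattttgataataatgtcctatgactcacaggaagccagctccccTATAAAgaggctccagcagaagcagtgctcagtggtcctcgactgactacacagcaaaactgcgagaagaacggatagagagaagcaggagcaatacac
Selp: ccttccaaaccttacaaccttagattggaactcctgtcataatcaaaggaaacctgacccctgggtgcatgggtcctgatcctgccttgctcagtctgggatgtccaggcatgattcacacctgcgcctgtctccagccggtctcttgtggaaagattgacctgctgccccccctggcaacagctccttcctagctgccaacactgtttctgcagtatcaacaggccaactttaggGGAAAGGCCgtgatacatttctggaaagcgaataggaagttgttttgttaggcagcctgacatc
GGNNNTTCC was present in 18.5% of the 32851 RefSeq windows of this length and TATAAA in 13.6%. Icam1 held 2 places with the first pattern, one of which matches the pattern on both strands and the other on the reverse strand, and Sele, Selp and F11r held 1 each, that of Selp on the reverse strand. The Cd44 window had no match to it. TATAAA was found in Icam1 and Sele, and these letters were not found in the Selp window. In Icam1 it begins at base 14 counted from the RefSeq start but 32 bases before the GENCODE start, which lies 45 bases farther downstream. The stricter NF-kB consensus had no match in any of the 5 windows, against 8.46% of all windows. A match here is a run of letters and no evidence of binding.

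Levels between genes were compared in TPM, which the authors scaled by gene length. Selplg, carried by leukocytes, was highest at 185 ± 11.3 TPM (SD over 6 libraries), above 94.2% of the genes tested. Cd44 followed at 112 ± 33.0 TPM and was below Selplg in 5 of 6 libraries. Icam1 was at 76.4 ± 5.71 TPM, below Cd44 in each library although their ranges overlapped. F11r was below Icam1 in each library. F11r (62.4 ± 2.95 TPM), Selp (60.9 ± 6.04 TPM), Jam2 (50.9 ± 9.08 TPM) and Vcam1 (49.0 ± 9.04 TPM) formed a middle group whose neighbours changed places between libraries. Jam3 was at 21.4 ± 3.30 TPM, and Sele was lowest at 6.38 ± 1.33 TPM, above 27.3% of the genes tested. The ranges of Vcam1 and Jam3, and of Jam3 and Sele, did not overlap. The highest and the lowest mean differed 29.0-fold.

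**Figure D1:**
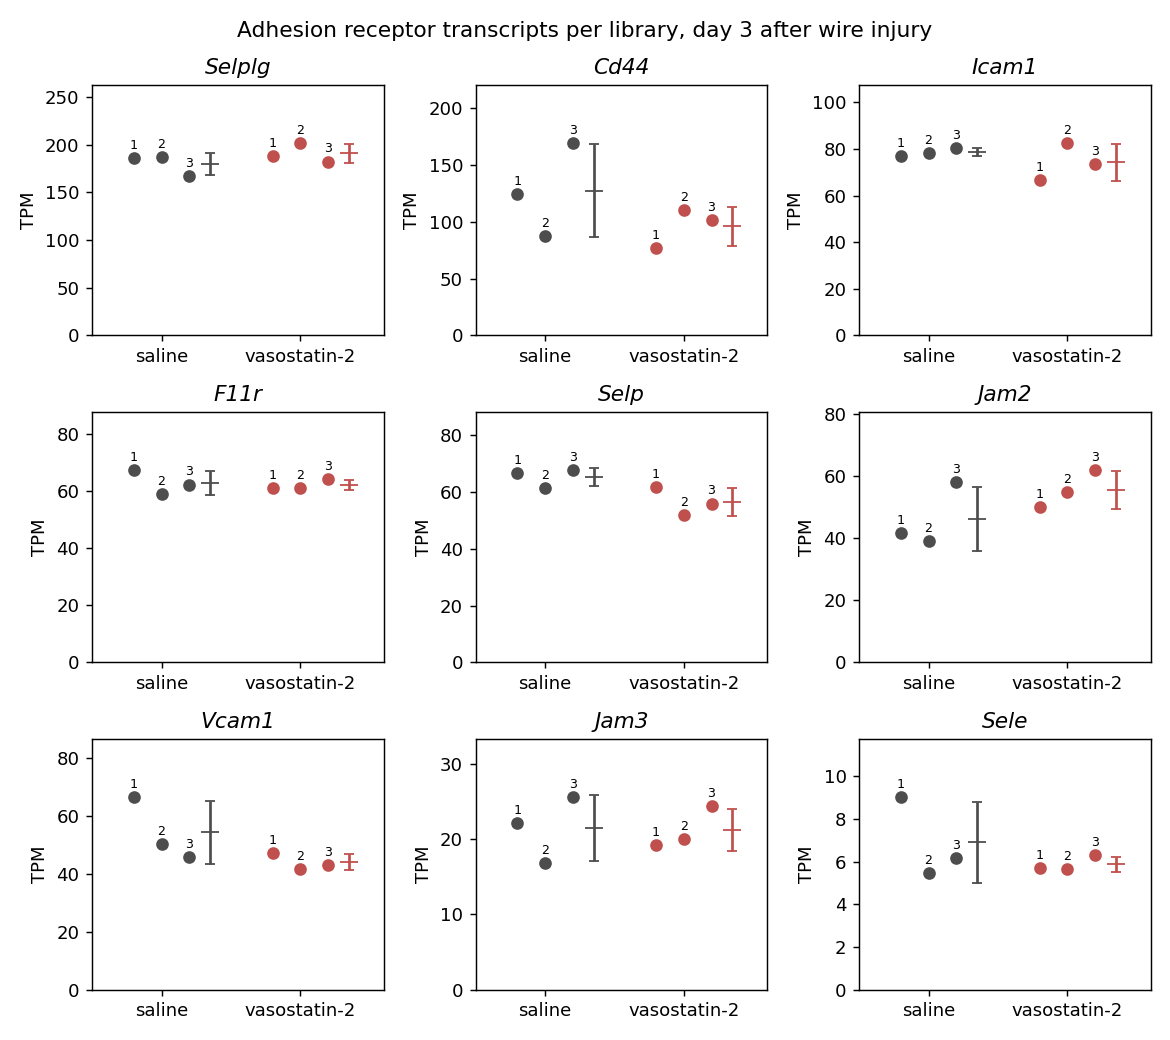
TPM of each receptor gene in each library, in order of mean level (points, numbered by replicate; the horizontal mark and bar are the group mean and SD, n = 3; axes start at 0). Cd44 spans 76.5 to 170 TPM, whereas F11r stays between 58.8 and 67.3 TPM, and the saline and vasostatin-2 points overlap in every panel.

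Total estimated counts were between 19333730 and 20105995 per library, at which 3 counts equal between 0.149 and 0.155 CPM, which are counts relative to the scaled library size. The labels name vascular smooth muscle as the cell type, but the RNA came from the whole vessel wall. Summed over each marker list, 8 contractile smooth muscle genes reached 780 to 2096 TPM, while 10 monocyte and macrophage genes reached 10660 to 15160 TPM and 10 endothelial genes 1203 to 1464 TPM. In the same sums, 8 adipocyte genes reached 7915 to 16750 TPM and 8 fibroblast genes 6008 to 10300 TPM. Red cell markers were highest in saline replicate 2, Schwann cell markers in saline replicate 3 and skeletal muscle markers in vasostatin-2 replicate 3. All 8 tested red cell markers had lower estimates with vasostatin-2 (median log2 fold change −2.42). Their list summed to 7018 to 43420 TPM with saline and 1151 to 8712 TPM with vasostatin-2, with overlap. The part of retained blood in the receptor values was not tested. In such bulk samples, fewer cells of a type and less RNA per cell cannot be told apart.

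P-selectin is stored in endothelial granules and in platelets, from which it reaches the surface within minutes. Selp was at 108, 109 and 111 CPM in saline replicates 1 to 3, and at 104, 87.4 and 93.9 CPM in the 3 vasostatin-2 libraries, in the same order. Every vasostatin-2 library lay below every saline library on this scale, but in TPM the groups overlapped, because vasostatin-2 replicate 1 (61.7 TPM) passed saline replicate 2 (61.5 TPM). The saline libraries lay close together and the vasostatin-2 libraries were spread, with means of 109 ± 1.36 and 95.1 ± 8.22 CPM (SD, n = 3 each). edgeR's quasi-likelihood test gave Selp a log2 fold change of −0.20 (SE 0.077, 95% interval −0.38 to −0.015), with an unadjusted p of 0.0374 and a Benjamini-Hochberg adjusted p of 0.684. With each library left out in turn, the unadjusted p ran from 0.0129, without vasostatin-2 replicate 1, to 0.139, without vasostatin-2 replicate 2, and was under 0.05 in the first of these alone. Across all genes, 12.8% of those tested had groups that did not overlap, 6.72% with the vasostatin-2 libraries lower, so 1 such gene among 9 is near that background.

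Markers of the cells that carry P-selectin did not move as one. Of 10 endothelial markers 5 had lower and 5 higher estimates, and their summed level was 2015 to 2390 CPM with saline and 2051 to 2387 CPM with vasostatin-2. Of 10 platelet markers 7 had lower estimates, and their summed level was 328 to 430 CPM with saline and 248 to 310 CPM with vasostatin-2, without overlap. Their median log2 fold change was −0.062, and their mean log2 level overlapped between groups. Most of the sum was the chemokine gene Pf4, at 235 to 313 CPM with saline and 172 to 197 CPM with vasostatin-2. Ppbp was also lower without overlap, at 25.4 to 35.9 CPM with saline and 14.9 to 19.8 CPM with vasostatin-2. These were the only 2 of the 10 whose groups did not overlap. Of the platelet receptor genes, Itgb3, also made by other cells, was at 37.4 to 58.7 CPM and Itga2b at 8.74 to 16.1 CPM. Gp1bb was at 3.64 to 8.21 CPM, while Gp1ba, Gp9 and Gp6 were all below 6 CPM, with Gp6 as low as 0.0505 CPM. The part of platelet RNA in the value of Selp was not tested. When libraries were scaled to the summed endothelial markers, a choice made after seeing the data, the log2 fold change of Selp was −0.24, and its edgeR test no longer passed an unadjusted 0.05.

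E-selectin is made anew by endothelium exposed to cytokines and is nearly absent from resting vessels. Sele was at 15.2, 10.1 and 10.6 CPM with saline and at 9.65, 9.66 and 10.4 CPM with vasostatin-2. Saline replicate 1 stood above the other 5 libraries, which lay within 1 CPM of each other. The log2 fold change was −0.27 (SE 0.17, 95% interval −0.68 to 0.14, edgeR adjusted p = 0.784), and it was −0.062 without saline replicate 1. Selp exceeded Sele 9.85-fold with saline and 9.66-fold with vasostatin-2 in mean TPM ratio.

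PSGL-1, the leukocyte protein that P-selectin binds best, is encoded by Selplg. It was at 162, 177 and 146 CPM with saline and at 170, 181 and 164 CPM with vasostatin-2, and the groups overlapped. Its log2 fold change was 0.093 (SE 0.090, 95% interval −0.12 to 0.31, edgeR adjusted p = 0.865), and it was 0.026 without saline replicate 3 and 0.16 without saline replicate 2. The interval leaves room for a change of up to 1.24 times the saline level and down to 0.920 times. Of 10 monocyte and macrophage markers, whose cells carry PSGL-1, 8 had higher estimates (median 0.22), and their sums were 6921 to 9887 CPM with saline and 8547 to 9168 CPM with vasostatin-2. Their mean log2 level did not overlap, at 8.88 to 9.14 with saline and 9.16 to 9.27 with vasostatin-2, though saline replicate 2 and vasostatin-2 replicate 1 nearly met. At an unadjusted edgeR p under 0.05 there were 5, all higher, where 7.14% of all tested genes passed in either direction. Of these markers 0 passed the adjusted threshold. The other leukocyte lists went the other way, with lower estimates for all 10 neutrophil markers and for 8 of 9 T and NK cell markers. The part of any of these cells in the Selplg value was not tested.

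ICAM1 binds the leukocyte integrins LFA-1 and Mac-1. Its gene Icam1 was at 93.2, 103 and 97.9 CPM with saline and at 83.7, 104 and 92.0 CPM with vasostatin-2. The highest and the lowest library were both treated with vasostatin-2, so the saline values lay inside that range. Icam1 had a log2 fold change of −0.075 (SE 0.092, 95% interval −0.29 to 0.14, edgeR adjusted p = 0.899), and −0.16 and −0.0037 when vasostatin-2 replicate 2 or 1 was left out.

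VCAM1 binds the integrin VLA-4 of monocytes and lymphocytes, and is made by activated endothelium and by smooth muscle cells of injured vessels. Vcam1 was at 107, 87.8 and 74.0 CPM with saline and at 78.0, 69.1 and 71.5 CPM with vasostatin-2. Saline replicate 1 was again highest, and saline replicate 3 lay within the vasostatin-2 range. For Vcam1 the log2 fold change was −0.30 (SE 0.13, 95% interval −0.61 to 0.024, edgeR adjusted p = 0.710). It was −0.15 without saline replicate 1 and −0.41 without saline replicate 3. Saline replicate 1 also had the highest level of Il1b, which encodes the cytokine interleukin-1 beta that induces these receptors, at 118 CPM against 20.9 to 59.4 CPM in the other 5 libraries. Whether that level has a part in the Sele and Vcam1 values was not tested.

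Cd44 varied most of the 9, with its highest library 2.14 times its lowest in CPM. It was at 261, 199 and 357 CPM with saline and at 166, 239 and 220 CPM with vasostatin-2. The groups overlapped, and the extremes were saline replicate 3 and vasostatin-2 replicate 1. Its log2 fold change of −0.39 (SE 0.23, 95% interval −0.94 to 0.16) had an edgeR adjusted p of 0.765, and was −0.14 without saline replicate 3 and −0.57 without saline replicate 2. The library with the most Cd44 also held the most Schwann cell transcripts: 10 markers summed to 977 CPM there, against 217 and 233 CPM in both remaining saline libraries and 252 to 329 CPM with vasostatin-2, with 8 of the 9 tested markers lower with vasostatin-2. The part of nerve tissue in the Cd44 value was not tested.

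The junctional adhesion molecules JAM-A, JAM-B and JAM-C are encoded by F11r, Jam2 and Jam3. F11r, whose product joins endothelial borders and is also found on platelets and leukocytes, was the steadiest of the 9. It was at 78.5, 74.5 and 72.9 CPM with saline and at 73.8, 73.7 and 77.4 CPM with vasostatin-2. F11r had a log2 fold change of −0.0060 (SE 0.062, 95% interval −0.15 to 0.14, edgeR adjusted p = 0.992), so changes beyond 1.10 or 0.900 times the saline level lay outside the interval.

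JAM-B, found on endothelium including that of lymphatic vessels, binds JAM-C on the opposite cell. Jam2 was at 90.3, 91.9 and 125 CPM with saline and at 112, 123 and 138 CPM with vasostatin-2. Saline replicates 1 and 2 were lowest and saline replicate 3 lay among the vasostatin-2 values. The log2 fold change of Jam2 was 0.28 (SE 0.15, 95% interval −0.077 to 0.63, edgeR adjusted p = 0.741), and 0.45 without saline replicate 3. Of 7 lymphatic endothelial markers 6 also had higher estimates with vasostatin-2. The lowest level of any of them was 19.3 CPM, for Prox1 in saline replicate 2. Their summed level was 546 to 799 CPM with saline and 744 to 1109 CPM with vasostatin-2. The 10 endothelial markers given above had 5 lower and 5 higher estimates (median 0.038). The part of either list in the Jam2 value was not tested. Jam3 was at 20.5, 16.9 and 23.7 CPM with saline and at 18.3, 19.1 and 23.4 CPM with vasostatin-2, so that both groups covered nearly the same range. The log2 fold change of Jam3 was −0.0087 (SE 0.15, 95% interval −0.37 to 0.35, edgeR adjusted p = 0.997), and it was 0.12 without saline replicate 3, and 0.058 and 0.035 when replicate 1 or 2 of the vasostatin-2 group was left out.

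**Figure D2:**
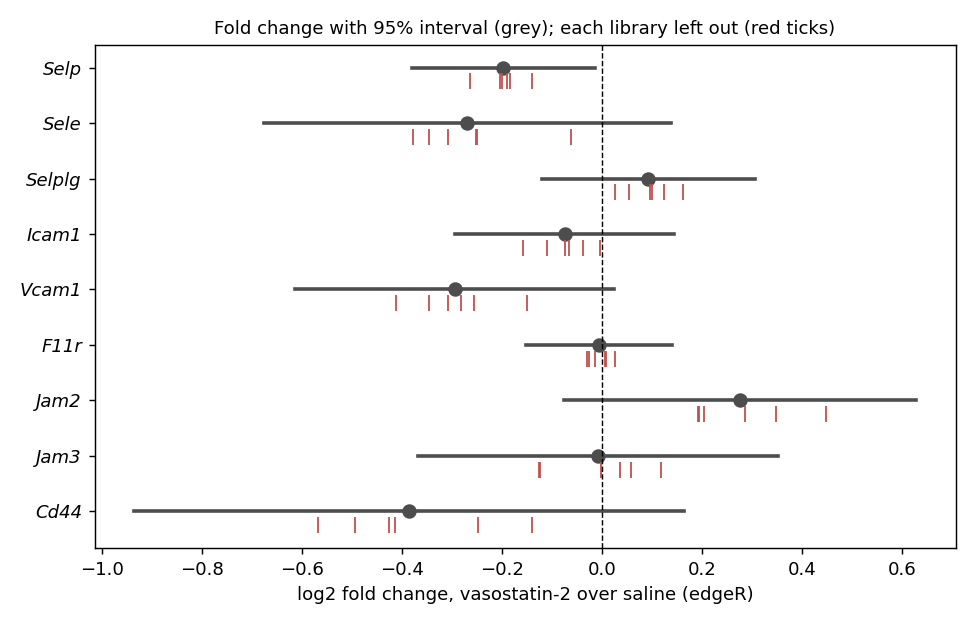
Log2 fold change of each receptor gene, vasostatin-2 over saline (horizontal axis; point, edgeR estimate; grey line, 95% interval; red ticks, the estimate with each of the 6 libraries left out in turn). The interval of Selp alone lies wholly on one side of 0, ending at −0.015, and the ticks of F11r and Jam3 fall on both sides.

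Over the 9 genes, edgeR with Benjamini-Hochberg adjustment called 0, as it did over all 14557 genes tested (0.0%). DESeq2 called 0 of the 9 but 113 of 13973 genes with a defined adjusted p (0.809%), and limma-voom called 0 of the 9 and 0 of all genes (0.0%). At an unadjusted edgeR p under 0.05 there was 1 of 9, Selp, where 7.14% of all tested genes passed in either direction and 3.85% on the lower side. Estimates were below 0 for 7 of 9, beside 50.2% of all genes, with a median log2 fold change of −0.075 beside −0.00068 over all genes. F11r and Jam3 count among those 7 with estimates near 0, and the count was 5 without vasostatin-2 replicate 1 or 2. The median was −0.0037 without the former and −0.14 without the latter. The authors' deposited table gives Selp a log2 fold change of −0.20 with a DESeq2 q-value of 0.814, and q-values between 0.920 and 1.00 for the other 8.

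**Figure D3:**
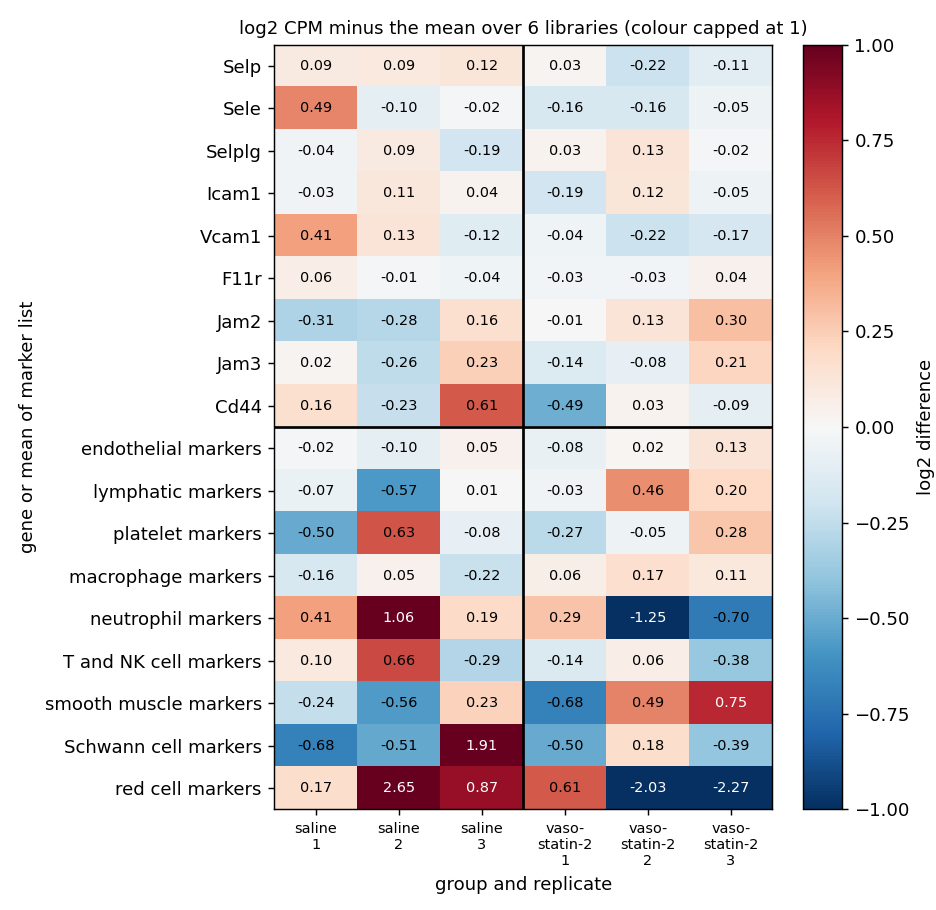
Log2 CPM of each receptor gene, and mean log2 CPM of each marker list, minus its mean over the 6 libraries (rows; columns are libraries; colour is capped at 1 and the number gives the value). Cd44 and the Schwann cell markers are both highest in saline replicate 3 (0.61 and 1.91), and Sele and Vcam1 are both highest in saline replicate 1 (0.49 and 0.41).

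Ratios between genes do not depend on how libraries are scaled. The 5 ratios taken were chosen after the gene values had been seen, so their tests are descriptions of these libraries. Jam2 over Jam3, the ratio of JAM-B to its partner JAM-C in TPM, was 1.89, 2.31 and 2.26 with saline and 2.60, 2.74 and 2.54 with vasostatin-2. All 3 vasostatin-2 ratios were higher, a mean log2 difference of 0.29 (exact two-sided permutation test p = 0.1, the smallest that 3 against 3 allows; 0.25 adjusted over the 5 ratios). Selp over its ligand gene Selplg was 0.358, 0.330 and 0.406 with saline and 0.328, 0.258 and 0.307 with vasostatin-2. All 3 of the latter were lower, though vasostatin-2 replicate 1 and saline replicate 2 nearly met, a log2 difference of −0.30 (exact permutation p = 0.1; 0.25 adjusted) that was −0.20 without vasostatin-2 replicate 2. Selp over Sele, Icam1 over the integrin chain gene Itgb2, and Vcam1 over the integrin chain gene Itga4 overlapped between groups, with log2 differences of −0.0085, 0.096 and −0.19 and exact permutation p values of 0.9, 0.8 and 0.5 (0.9, 0.9 and 0.833 adjusted). That of Vcam1 over Itga4 was −0.018 without saline replicate 1.

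**Figure D4:**
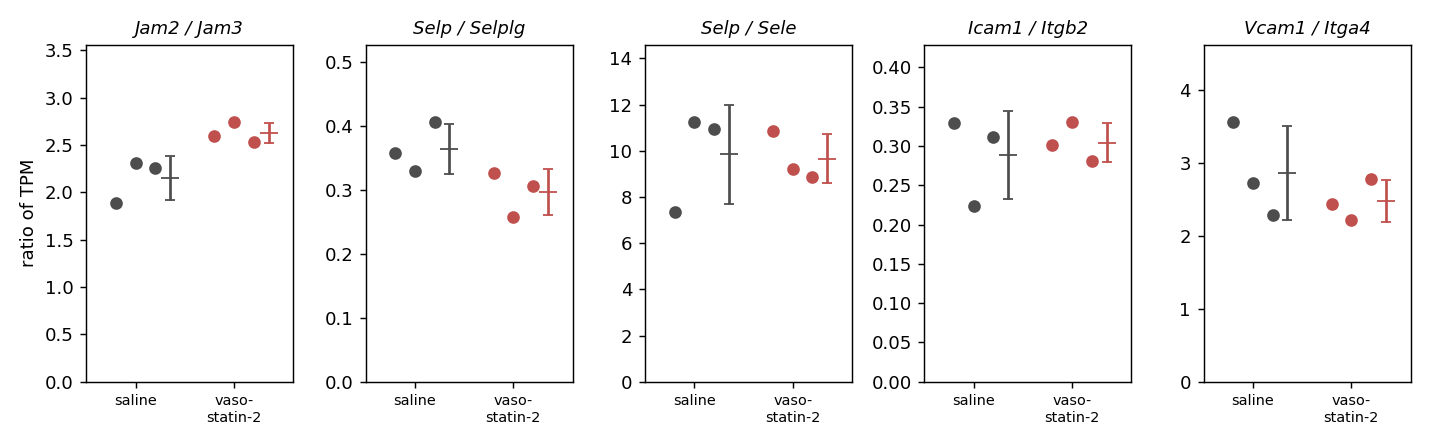
Ratio of TPM for 5 pairs of genes, either a receptor and its partner or the selectins Selp and Sele, in each library (points; the horizontal mark and bar are the group mean and SD, n = 3; axes start at 0). Jam2 over Jam3 averages 2.15 with saline and 2.62 with vasostatin-2, and Selp over Selplg 0.365 and 0.297, while the other 3 pairs overlap.

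The integrin side of these contacts was read from a list of 11 genes, mainly integrins and their linkers. RNA of the whole vessel wall does not show which cells made the transcripts of these genes. None passed edgeR's adjusted threshold, 8 had lower estimates, the median log2 fold change was −0.087, and 2 had an unadjusted p under 0.05, both lower, where 3.85% of all genes passed on that side. Leaving out vasostatin-2 replicate 1 gave a median of −0.052, and leaving out replicate 3 of that group −0.14. One of them was Itgal, the LFA-1 chain that binds ICAM1, at 31.1 ± 9.40 CPM with vasostatin-2 beside 52.4 ± 6.63 CPM in saline libraries (log2 fold change −0.75, SE 0.21, edgeR adjusted p = 0.586), and its groups did not overlap. The most abundant of the list, Itgb1 and the linker gene Tln1, had log2 fold changes of 0.019 and 0.0068, both of which turned below 0 without saline replicate 2 (−0.074 and −0.051). Among leukocytes that carry Itgal, marker lists went different ways. Monocyte and macrophage markers had mostly higher estimates, as given above. All 10 neutrophil markers had lower ones, with sums of 445 to 764 CPM with saline and 247 to 501 CPM with vasostatin-2. Of these 10, Ly6g was low throughout, below 1 CPM in each of the 6 libraries and at 0 in vasostatin-2 replicate 2. T and NK cell markers summed to 36.3 to 96.9 CPM with saline and 43.8 to 56.5 CPM with vasostatin-2, with 8 of 9 lower. The part of these cells in the Itgal value was not tested.

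Selectins bind only ligands that have been given the right sugars and sulfate, and the 14 genes for those enzymes and carriers were split evenly. There were 7 lower and 7 higher, with a median near 0 (−0.0025, and 0.049 without saline replicate 3). At an unadjusted edgeR p under 0.05 there were 0, where 7.14% of all tested genes passed in either direction. St3gal4, a sialyltransferase of selectin ligands, had a log2 fold change of −0.16 (−0.10 without vasostatin-2 replicate 3), and Gcnt1, which builds the branch on which PSGL-1 carries its ligand, 0.17 (0.10 without saline replicate 3). The abundant carriers Cd34 and Glg1 were at 327 ± 36.7 and 299 ± 25.6 CPM with vasostatin-2, beside 311 ± 72.3 and 281 ± 27.1 CPM in saline libraries.

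Of 15 other vascular adhesion and junction genes 12 passed the filter, 8 with lower estimates (median −0.070). At an unadjusted p under 0.05 there were 3 lower and 1 higher, where 7.14% of all genes passed in either direction, and 0 passed the adjusted threshold. Cdh5, the cadherin of endothelial junctions, was at 382, 368 and 390 CPM with vasostatin-2, beside 447, 418 and 461 CPM in saline libraries, without overlap (log2 fold change −0.22, SE 0.078, edgeR adjusted p = 0.681). Pecam1, which sits at the same borders, had a log2 fold change of −0.053, and of 0.041 without saline replicate 3. Jaml, a leukocyte protein of the JAM family, was at 8.44 ± 1.33 CPM in the saline libraries and at 5.08 ± 1.48 CPM in the vasostatin-2 libraries (log2 fold change −0.73, adjusted p = 0.621).

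Hyaluronan and other CD44 partners were covered by 15 genes, of which 14 were matched by symbol (Tmem2 was not). They divided into 7 lower and 7 higher, with a median of 0.012 (0.10 when saline replicate 1 was left out, and −0.037 when vasostatin-2 replicate 3 was). At an unadjusted edgeR p under 0.05 there was 1 gene on each side, and 0 passed the adjusted threshold. Of all tested genes 7.14% passed the unadjusted threshold in either direction and 3.85% on the lower side. Has3, a hyaluronan synthase, was at 3.37, 4.91 and 3.16 CPM with vasostatin-2, beside 2.12, 1.86 and 2.29 CPM in saline libraries (log2 fold change 0.86, SE 0.24, edgeR adjusted p = 0.582). Srgn, the proteoglycan of leukocyte granules, was lower at 193 ± 40.9 against 266 ± 9.75 CPM (log2 fold change −0.46, adjusted p = 0.623). Spp1, which encodes osteopontin, ranged from 513 to 2745 CPM among the saline libraries alone, with a log2 fold change of −0.0091 that was 1.20 without saline replicate 2, and Stab1, a scavenger receptor of macrophages, was at 1264 ± 83.5 against 1094 ± 139 CPM.

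Sheddases, which cut adhesion receptors from the surface, and the proteins that anchor them inside the cell had 9 of 12 estimates lower (median −0.16), 3 of them at an unadjusted p under 0.05 and 0 past the adjusted threshold. Over all genes 50.2% of estimates were lower, and 3.85% of genes were lower at that p. Ezr, the anchor ezrin that holds CD44, ICAM1 and PSGL-1 tails, was at 57.7 ± 7.60 CPM with vasostatin-2, against 72.5 ± 3.85 CPM in saline libraries (log2 fold change −0.33, edgeR adjusted p = 0.623). Its abundant relative Msn was at 871 ± 24.7 against 952 ± 109 CPM, with groups that overlapped. Rhbdf2, a partner that brings the sheddase ADAM17 to the surface, was at 40.5 ± 2.26 against 48.5 ± 3.00 CPM (log2 fold change −0.26, adjusted p = 0.601). Mmp14, a membrane protease that cuts CD44, was at 520 ± 75.5 against 736 ± 168 CPM (log2 fold change −0.50, −0.30 without saline replicate 1, adjusted p = 0.681).

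Cytokines, receptors and NF-kB factors that induce endothelial adhesion receptors had 13 of 15 estimates lower (median −0.24), with 3 at an unadjusted p under 0.05 and 0 past the adjusted threshold, beside 50.2% of all genes with lower estimates and 3.85% lower at that p. Il1b was at 39.1, 20.9 and 40.3 CPM with vasostatin-2, beside 118, 59.4 and 50.2 CPM in saline libraries, without overlap (log2 fold change −1.18, SE 0.39, edgeR adjusted p = 0.637). Nfkbia, the feedback inhibitor of NF-kB, was at 85.4 ± 12.4 against 113 ± 18.0 CPM (log2 fold change −0.41, adjusted p = 0.681). The receptor genes Il4ra and Tnfrsf1b, the most abundant of the list, had log2 fold changes of −0.32 and −0.11. Tnfrsf1b turned to 0.15 without saline replicate 2. The log2 fold change of Il1b was −0.71 without saline replicate 1, and the list's median −0.15. Neutrophils also make Il1b, and the part of the neutrophil markers given above in its value was not tested.

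**Figure D5:**
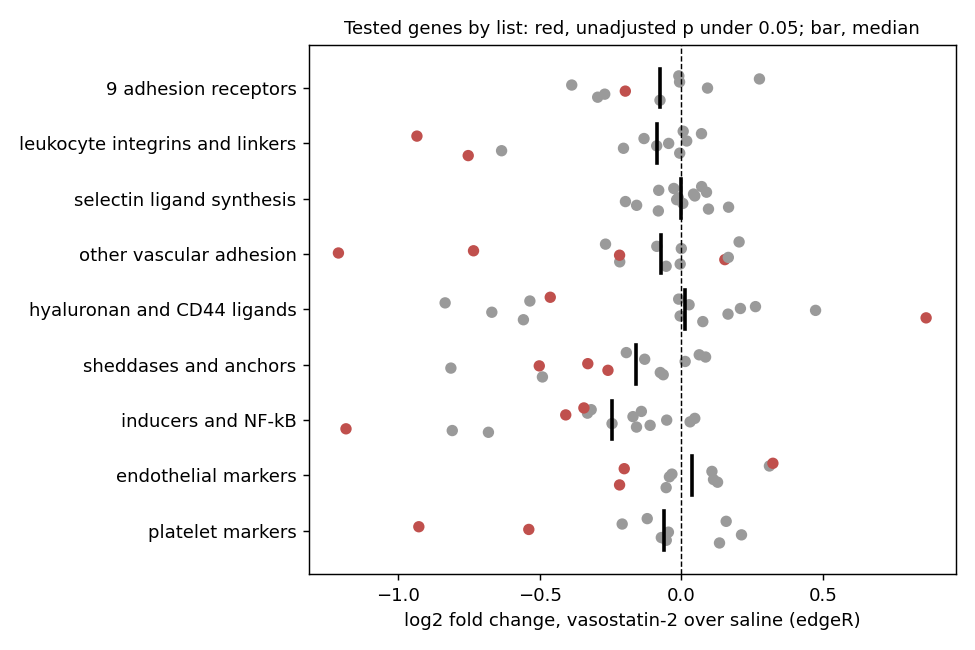
Log2 fold change of each tested gene, vasostatin-2 over saline (horizontal axis), by gene list (rows; red points have an unadjusted edgeR p under 0.05; black bars are list medians). Of the marker lists only the endothelial and platelet ones are drawn. The medians drawn run from −0.24 for inducers to 0.038 for endothelial markers, with the 9 receptor genes at −0.075.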

How the data were processed

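Per the submitters' processing notes, HISAT2 2.1.0, DESeq2 1.26.0 and GRCm38.p6 were used; the sources used here do not name the counting tool. The authors deposited estimated counts (65.6% exactly whole), TPM and FPKM per library, and log2 fold changes with p-values and q-values from DESeq2; FPKM was not used. The sign of the deposited log2 values matched vasostatin-2 minus saline in 99.4% of genes with a mean count above 50.

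Estimated counts were rounded. Genes were kept by filterByExpr (14557), libraries scaled by TMM (0.985 to 1.01), and groups compared with the quasi-likelihood test of edgeR 4.0.16 in R 4.3.3, with robust dispersions and Benjamini-Hochberg adjustment over all tested genes; limma 3.58.1 and DESeq2 1.42.0 (584 adjusted p-values undefined) were alternatives. The test was checked on simulated counts, but the changes put in were larger than any estimate of the 9 genes. That check does not cover changes of their size. Counts of list members and medians stand without a test. Some lists share genes, so their counts are not separate observations. Mmp9 is among both the sheddases and the neutrophil markers, and Lyve1 among both the hyaluronan genes and the lymphatic markers. Pecam1 and Cdh5 are among both the other vascular adhesion genes and the endothelial markers. The 9 genes and the lists were chosen with earlier results of these data known. Beyond the 9, the text names from each partner list the 2 most abundant genes and the 2 with the smallest p, plus markers singled out after their values were seen. Values of some genes that these rules would name are not reported here, although list counts include them. Exact permutation tests used scipy 1.17.1. Between replicates of a group, chi-square per degree of freedom was at least 15.6, more than repeat counting of 1 library gives. Alternatives were other scalings, filters, tests, pseudocounts, a replicate block and left-out libraries.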

Additional observations from a re-analysis of the deposited data

How the results depend on the processing

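None of the 9 receptor genes passed an adjusted p of 0.05 under any of the 19 alternatives (lowest 0.402, Cd44 without saline replicate 2). Icam1, Vcam1, Sele, Selp, Selplg, Cd44 and Jam2 kept their direction in all 19. With single libraries left out, F11r ran from −0.030 to 0.025, turning positive without saline replicate 1 and without replicate 1 or 2 of the vasostatin-2 group (0.025, 0.0054 and 0.0080). Jam3 ran from −0.13 to 0.12, turning positive without saline replicate 3 and without the same pair (0.12, 0.058 and 0.035), and stood at 0.00030 without both replicates 3. The cause was not tested. Receptor genes at an unadjusted p under 0.05 numbered 0 to 2 with single libraries left out, 2 without both replicates 3 (Vcam1 and Jam2) and 2 with the replicate block (Vcam1 and Jam2, with log2 fold changes of −0.28 and 0.29). Deviations of same-numbered libraries from their group means had correlations of −0.119, 0.0251 and 0.0273. With 3 libraries a group these cannot show whether the samples were paired. Over all genes, calls at an adjusted p of 0.05 were 113 with DESeq2, 3 when scaled to the endothelial markers, and 0 to 2 with single libraries left out (2 without saline replicate 2). Genes at an unadjusted p under 0.05 numbered 665 with the endothelial scaling and 496 to 1654 with single libraries left out, against 1040. The log2 difference of the Selp to Sele ratio ran from −0.21 to 0.099 with single libraries left out and was 0.046 from estimated counts, and that of Icam1 to Itgb2 from −0.075 (without saline replicate 2) to 0.20. With 3 libraries a group the intervals of most receptor genes span 0, and smaller changes could not be detected.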

Other observations

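Among 10446 other genes averaging 10 CPM or more, those whose log2 CPM followed Cd44 most closely over the 6 libraries were Adora2b and Stxbp6, at a root-mean-square distance of 0.082 and 0.092 after each gene was centred on its mean. Only 3 genes lay within 0.1 of Cd44, against 28 for Jam2, 41 for Vcam1 and 58 for Sele. The nearest to Jam2 were Rgmb and Ltc4s (0.058 and 0.061), to Vcam1 Dedd2 and Ctsk (0.036 and 0.053), and to Sele Myo1d and Ugcg (0.022 and 0.044). For F11r, which hardly varied, 3872 genes lay within that distance, so likeness to it carries little information. The points share the same 6 libraries, and nothing about shared control follows from the distances.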
